A study of Mus musculus with 24 samples.

Results

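The step compared here is lens epithelium at E16.5 against lens epithelium at E14.5, embryonic stages given in days after conception, over all genes of the deposited count table. It was chosen by column label, as the 3 libraries of E16.5 epithelium and the 3 of E14.5 epithelium, which makes 6 of the 24 libraries of the series. The other libraries hold epithelium at later stages and lens fiber cells at each stage. All libraries came from CD1 mice, an outbred albino stock, with no allele, transgene or treatment named in the labels and no sex given. Epithelium and fiber were microdissected from lenses, so each library holds whatever cells lay on that piece of tissue, and the sources used here do not say whether a replicate pools several embryos. The design text calls the replicates biological, and nothing more is said of how they were separated.

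The lens epithelium is a single layer of cells over the front of the lens. It divides, lays down the thick basement membrane called the lens capsule, and feeds cells to the equator, where they leave the cell cycle and turn into fiber cells. In the embryo the back of the lens and its rim are wrapped in a temporary network of blood vessels, and the rim faces the optic cup margin from which ciliary body and iris form.

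Total counts were 8352928 to 11819117 in E16.5 epithelium and 8970302 to 11536674 in E14.5 epithelium. The ribosomal precursor Rn45s took 5.95% to 9.82% of counts at E16.5 and 8.09% to 17.4% at E14.5, and the 16 crystallins 2.91% to 3.32% at E16.5 and 1.66% to 2.13% at E14.5. Lens epithelium markers were present in the 6 libraries. The eye regulator Pax6 had 439, 395 and 417 CPM (a gene's count relative to the total of its library, after edgeR's scaling of the libraries) at E16.5 and 410, 453 and 411 CPM at E14.5, and E-cadherin (Cdh1) had 532 to 581 CPM at E16.5 and 493 to 525 CPM at E14.5. The X-inactivation RNA Xist and the Y-linked Kdm5d, Eif2s3y, Uty and Ddx3y were present in each of the 6 libraries, with Xist between 661 and 2490 CPM at E16.5 and between 1390 and 1770 CPM at E14.5. Such a mix of female and male RNA is not what 1 embryo gives, so each library appears to hold tissue of more than 1. Gapdh, which has many near-identical pseudogene copies, had 12.6, 15.8 and 15.1 CPM at E16.5, against 13.3, 9.73 and 12.4 CPM at E14.5, and the 5 adult globins Hba-a1, Hba-a2, Hbb-bs, Hbb-bt and Hbb-b1 are listed at 0 in the 6 libraries.

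E14.5 replicate 2 lay closer to E16.5 than the other E14.5 libraries did. Its log2 CPM correlated across genes with the 3 E16.5 libraries at 0.985 to 0.987, against 0.978 to 0.980 for E14.5 replicates 1 and 3. It held the highest E14.5 value in 143 of the 212 genes that rose, against 39 and 30 for E14.5 replicates 1 and 3. It held the lowest in 71 of the 102 that fell, against 17 and 14. These genes were called from the same libraries, and the same counts over all genes are not given here. Rn45s took 8.09% of its counts, inside the E16.5 range of 5.95% to 9.82%, against 17.4% and 13.8% in E14.5 replicates 1 and 3. Whether this has a part in its closeness to E16.5 was not tested. E16.5 replicate 3 stood apart for genes of the neighbouring optic cup: 10 ciliary margin markers summed to 11.9, 35.7 and 78 CPM in E16.5 replicates 1, 2 and 3, against 12.7, 30 and 18.7 CPM at E14.5. Results that rest on either library are given without it.

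Of 12427 genes tested, 212 rose (1.71%) and 102 fell (0.821%) in E16.5 epithelium relative to E14.5. The words rose and fell are kept for genes with an adjusted p under 0.05 in edgeR's quasi-likelihood test, Benjamini-Hochberg adjusted over all genes tested, and a change of at least 2-fold. At the same adjusted p but any size, 1340 genes were higher (10.8%) and 1487 lower (12%), and those with less than a 2-fold change are called higher or lower below. Of 217 genes of the lists that were higher or lower at any size, 142 stayed under that adjusted p with each alternative tried, 43 lost it when libraries were scaled by total count alone and 54 without 1 of the 6 libraries; below, such a call is said to be lost. The median log2 change of all genes was -0.002. These shares and this median are what the counts of the gene lists below are to be read against. Of the genes that rose, 53 reached a mean of 20 CPM, 136 lay between 1 and 20 CPM and 23 stayed under 1 CPM; of those that fell the numbers were 24, 76 and 2. The 3 E16.5 values lay above the 3 E14.5 values in 192 of the 212 genes that rose, where 18.0% of all genes tested show that order, and below them in 101 of the 102 that fell, where 20.4% do. These genes were called from the same 6 libraries, so that order is largely set by the call and lends it no separate support. Without E14.5 replicate 2 the counts were 260 and 128, and without E16.5 replicate 3 they were 191 and 149. In dissected tissue, a change in the share of a cell type and a change in RNA per cell cannot be told apart, and this holds for the results that follow.

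**Figure D1:**
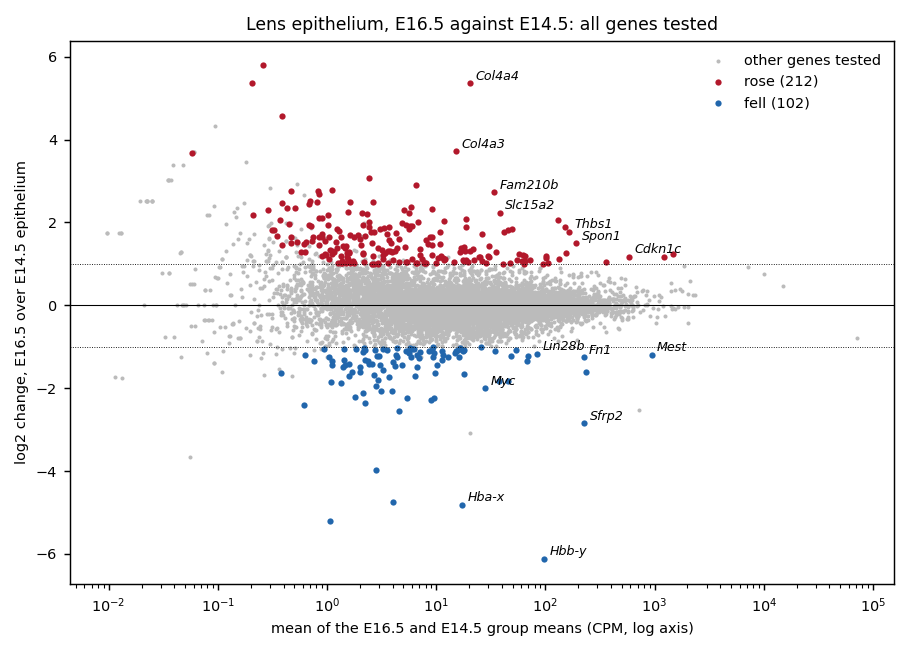
Log2 change of E16.5 over E14.5 lens epithelium (vertical axis) against the mean of both group means in CPM (horizontal log axis) for all genes tested, with 212 genes that rose in red, 102 that fell in blue and dotted lines at 2-fold. Col4a4 and Col4a3 stand above the other genes of similar level, and the embryonic globin Hbb-y lies lowest.

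The largest rises among genes whose mean reached 20 CPM in a group belonged to Col4a4 and Col4a3, which encode the alpha 4 and alpha 3 chains of type IV collagen. Together with the alpha 5 chain (Col4a5) they form a network found in a few specialised basement membranes, the lens capsule, the cochlea and the kidney glomerulus among them. Col4a4 had 48.9, 27.7 and 44 CPM at E16.5, against 0.633, 2.14 and 0.18 CPM at E14.5, a log2 change of 5.36 ± 0.51 (SE, edgeR adjusted p = 1.08e-07). Col4a3 had 32.3, 21.1 and 31.6 CPM at E16.5, against 2.06, 2.97 and 1.44 CPM at E14.5 (log2 change 3.72 ± 0.34 SE, edgeR adjusted p = 5.83e-08). The stages did not overlap for either gene, and E14.5 replicate 2 was the highest of its group for both; without it the log2 changes were 6.69 and 4.03. Later means, given without a test, were higher again. Col4a4 averaged 40.2 ± 11.1, 187 ± 22.2 and 391 ± 51.6 CPM, and Col4a3 28.4 ± 6.28, 138 ± 19.1 and 300 ± 39.5 CPM, in epithelium of E16.5, E18.5 and P0.5 (SD, n = 3 libraries each).

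Both genes start from the same stretch of chromosome 1 and are read in opposite directions. Col4a4 occupies 82448423 to 82586849 on the minus strand and Col4a3 82586921 to 82722059 on the plus strand (GENCODE M21, GRCm38), so that 71 bases lie between their annotated starts. The shared start region is shown because the pair rose together; it spans chr1:82586800-82587099 on the minus strand (RefSeq, GRCm38.p6), reads 5′ to 3′ toward Col4a4, and has the 71 bases between the starts, 82586850 to 82586920, in capitals.
Col4a4 and Col4a3 start region: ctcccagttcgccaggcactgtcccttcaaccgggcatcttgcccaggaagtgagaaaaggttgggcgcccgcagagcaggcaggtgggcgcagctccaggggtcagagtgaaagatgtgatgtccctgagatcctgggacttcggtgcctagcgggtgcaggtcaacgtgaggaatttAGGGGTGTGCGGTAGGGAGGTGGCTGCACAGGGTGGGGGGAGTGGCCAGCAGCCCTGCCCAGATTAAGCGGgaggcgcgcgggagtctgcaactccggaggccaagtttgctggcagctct
GC content over these 300 bases was 63.3%, against a median of 52.7% over 32851 RefSeq start regions of the same length. On both strands, none of 4 short sequences searched for was present: TATAAA, which 13.6% of the start regions hold, CCAAT (37.4%), GGGCGG (35.7%) and CACGTG (7.15%). This says only that these letters are not in this window.

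The rest of the basement membrane list moved less. Of its 22 genes, 2 rose and 2 fell, 12 were higher and 5 lower at any size, and the median log2 change was 0.25. With DESeq2, 2 were lower in place of 5. The chains that the early capsule is built from were higher by small amounts: Col4a1 had 2650, 2540 and 2450 CPM at E16.5, against 2080, 2130 and 2200 CPM at E14.5 (log2 change 0.25 ± 0.06 SE, edgeR adjusted p = 0.00666), and Col4a2, Col4a5 and Col4a6 were higher by 0.39, 0.33 and 0.34 on the log2 scale. The heparan sulfate proteoglycan perlecan (Hspg2) had 2550, 2520 and 2550 CPM at E16.5, against 1470, 1760 and 1850 CPM at E14.5, a log2 change of 0.58 ± 0.11 (SE, edgeR adjusted p = 0.000473). Nephronectin (Npnt, an integrin ligand, 0.70), the laminin chains Lama2 (0.82) and Lama5 (0.53), Sparc (0.36) and Nid1 (0.26) were higher too. Lama1, Lamb1 and Lamc1, which form the main laminin of the embryonic capsule, had log2 changes of 0.11, 0.05 and 0.15 and did not pass. The 2 that fell, Lama4 (-1.07 ± 0.21 SE, edgeR adjusted p = 0.000841) and Col15a1 (-1.22 ± 0.22, 0.00026), are known from the basement membrane of blood vessels. Neither passed with DESeq2, and the log2 change of Lama4 was -0.99 without E16.5 replicate 2 and -0.98 without E14.5 replicate 1, under the fold threshold. Nid2 (-0.80), Lama3 (-0.68) and Col18a1 (-0.58) were lower. The call of Col18a1 was lost with DESeq2 and without E16.5 replicate 1 or 2 (log2 changes -0.44 and -0.54), and that of Lama3 without E14.5 replicate 3 (-0.38). The call of Nid1 was lost without E16.5 replicate 1 or 3 or E14.5 replicate 1 (0.20 to 0.25), and those of Nid1 and Col4a1 were lost with total count scaling.

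Other secreted matrix proteins and their enzymes were among the largest rises. Thrombospondin 1 (Thbs1), a matrix glycoprotein that binds and activates latent TGF-beta, had 262, 255 and 244 CPM at E16.5, against 72, 97.9 and 53.6 CPM at E14.5 (log2 change 1.77 ± 0.19 SE, edgeR adjusted p = 7.71e-07). Spondin 1 (Spon1), which shares repeats with thrombospondin, had 307, 286 and 259 CPM at E16.5, against 86.2, 121 and 93.1 CPM at E14.5, and had the smallest adjusted p of the rising genes named here (log2 change 1.5 ± 0.09 SE, edgeR adjusted p = 9.97e-11). Both genes had their 3 E16.5 libraries close together and far above E14.5. Tinagl1, a matrix protein of the cathepsin B family that lacks protease activity, had 79.1, 65.1 and 66.8 CPM at E16.5, against 17.3, 26.2 and 16.2 CPM at E14.5 (log2 change 1.82). Podocan (Podn), a small leucine-rich proteoglycan, averaged 29.6 ± 2.15 CPM at E16.5, against 7.90 ± 2.11 CPM at E14.5 (SD, n = 3 each; log2 change 1.90), and the proteoglycan testican 1 (Spock1) 65.2 ± 6.45 CPM at E16.5, against 19.1 ± 3.11 CPM at E14.5 (1.77).

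Among the 30 other genes that rose and reached 20 CPM, which no rule or list named and which were picked out here after their values were seen, several also act on matrix. Loxl1, a cross-linker of elastic fibers, averaged 141 ± 16.6 CPM at E16.5, against 61.9 ± 10.6 CPM at E14.5 (SD, n = 3 each; log2 change 1.19, edgeR adjusted p = 1.16e-06). Adamts6 (1.12) and Adamtsl4 (1.08), which belong to the family that handles fibrillin microfibrils, P4ha2 (1.32), a prolyl hydroxylase of collagen, and Mfap4 (1.0), a microfibril protein, had E16.5 libraries wholly above E14.5. Patients with mutations in ADAMTSL4 have a displaced lens, and the zonule that holds the lens is made of such microfibrils. Of the list's fibrillin and microfibril genes, Mfap2 was higher (log2 change 0.73, edgeR adjusted p = 2.85e-07), and Fbn1 was higher by 0.30 with overlapping stages, a call lost with total count scaling and without E16.5 replicate 1 or 3 or E14.5 replicate 1 or 2 (0.24 to 0.28). Fbn2 had 36, 63.7 and 135 CPM at E16.5, against 90.5, 109 and 99.4 CPM at E14.5, and did not pass.

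The next largest rises were of genes with other roles. Fam210b, a mitochondrial membrane protein known from red cell maturation, had 72, 48.6 and 56.2 CPM at E16.5, against 8.39, 9.73 and 8.46 CPM at E14.5 (log2 change 2.73 ± 0.20 SE, edgeR adjusted p = 3.12e-09). The peptide transporter Slc15a2 had 75.4, 62.8 and 51.4 CPM at E16.5, against 10.5, 20.6 and 9.3 CPM at E14.5 (2.23 ± 0.25, 1.22e-06). St8sia2, which adds polysialic acid to cell surface proteins such as NCAM, had 29.1, 29.6 and 32.2 CPM at E16.5, against 5.14, 11.8 and 4.56 CPM at E14.5 (2.08 ± 0.20, 1.08e-07). The groups did not overlap for these genes. Hif3a, a hypoxia-inducible factor subunit with a mainly inhibitory role, had 68.5, 78.2 and 87.7 CPM at E16.5, against 17.8, 27.7 and 19.3 CPM at E14.5 (log2 change 1.85). Pgm5 (1.73), a muscle adherens junction protein related to phosphoglucomutase, the ephrin receptor Epha5 (1.43) and the phosphatase Dusp15 (1.36) rose as well.

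The rises of Cwc22 and Abca13 were less even. Cwc22, a splicing factor, had 397, 154 and 71.4 CPM at E16.5, against 60.1, 69.6 and 21.9 CPM at E14.5 (log2 change 2.05 ± 0.67 SE, edgeR adjusted p = 0.0308). E16.5 replicate 1 was far above the other libraries. The log2 change of Cwc22 was 1.17 without it, 2.19 without E14.5 replicate 1 and 1.67 without E14.5 replicate 3, and none of these passed. Abca13, a lipid transporter, had 430, 123 and 161 CPM at E16.5, against 45.6, 69.9 and 75.4 CPM at E14.5 (1.89 ± 0.43, 0.00233). Replicate 1 was again the highest, and without it the log2 change of Abca13 was 1.15 and still passed.

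**Figure D2:**
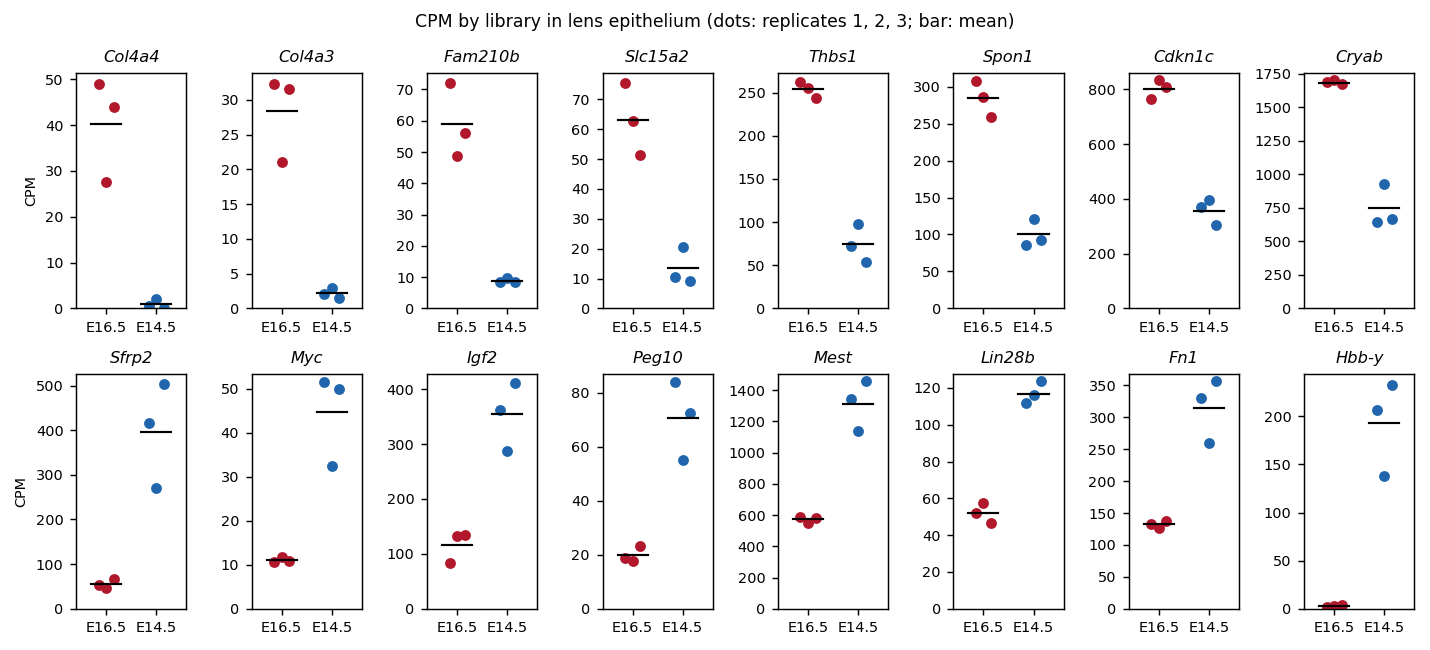
CPM in each library (linear axes from 0) for 8 genes that rose and 8 that fell, E16.5 in red and E14.5 in blue, with dots in the order of replicates 1, 2 and 3 and a bar at the mean. The stages do not overlap in any panel, and E14.5 replicate 2 is the E14.5 library nearest to E16.5 in most of them.

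Embryonic globins had the largest falls. They are made by the primitive red cells of the yolk sac, which circulate in mid gestation and are then replaced by red cells from the fetal liver. Hbb-y had 2.09, 2.62 and 3.6 CPM at E16.5, against 207, 138 and 233 CPM at E14.5 (log2 change -6.12 ± 0.23 SE, edgeR adjusted p = 1.82e-13), and Hba-x 0.62, 1.28 and 1.57 CPM at E16.5, against 37, 22.4 and 40.1 CPM at E14.5 (-4.81 ± 0.27, 5.02e-11). Hbb-bh1 had 2 counts over the 3 E16.5 libraries and 89 over the 3 E14.5 libraries, a ratio of 0.0227 (exact 95% interval 0.0027 to 0.0843, counting error only). Of other red cell genes, the band 3 anion exchanger Slc4a1 was lower (4.81, 6.52 and 7.42 CPM at E16.5, against 10.2, 13.3 and 10.3 CPM at E14.5; log2 change -0.84), and Alas2 did not pass. The call of Slc4a1 was lost without E16.5 replicate 1 or 2 and without any of the 3 E14.5 replicates in turn (log2 changes -0.91 to -0.69). The adult globins were listed at 0 in each library, while Alas2 had 130 to 252 counts. They therefore give no measure of red cells from the fetal liver.

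Most endothelium markers were lower in the same libraries. Of the 12 on the list 8 were lower, 1 of them by over 2-fold, with a median log2 change of -0.76. DESeq2 called 5 lower, and 6 to 8 were lower when single libraries were left out. Their sum was 296 to 365 CPM at E16.5, against 461 to 534 CPM at E14.5. The endothelial sialomucin Emcn fell (6.05, 6.11 and 8.85 CPM at E16.5, against 19.5, 13 and 16 CPM at E14.5), and the VEGF receptor Kdr (-0.97), Pecam1 (-0.91) and VE-cadherin (Cdh5, -0.75) were lower. The calls of Kdr and Cdh5 were lost with DESeq2, and that of Cdh5 also with total count scaling and without E16.5 replicate 1 or 2 or E14.5 replicate 1 or 3 (-0.74 to -0.65). No marker on the list was at 0 in either group. Plvap of fenestrated endothelium (log2 change -1.08) and the apelin receptor Aplnr (-1.03), singled out after their values were seen, fell too. Mural cell markers were mixed: the G protein regulator Rgs5 rose (96.4, 78.5 and 95.1 CPM at E16.5, against 37.8, 55.6 and 25.4 CPM at E14.5), Acta2 was higher (4.34, 6.35 and 8.17 CPM at E16.5, against 2.85, 5.59 and 3.06 CPM at E14.5, with overlapping stages), Pdgfrb (-0.49) and Cspg4 (-0.72) were lower, and the list summed to 306 to 329 CPM at E16.5, against 263 to 295 CPM at E14.5. With DESeq2 neither Rgs5 nor Acta2 passed. The call of Rgs5 was lost without E14.5 replicate 3 (log2 change 0.94), and that of Acta2 with the 6 libraries fitted alone and without E16.5 replicate 2 or 3 or E14.5 replicate 1 or 3 (0.50 to 0.71). The call of Pdgfrb was lost without E16.5 replicate 2 or E14.5 replicate 3 (-0.44 and -0.45), and that of Cspg4 without E16.5 replicate 1 or 2 (-0.62 and -0.64). Macrophage markers summed to 11.5 to 16 CPM at E16.5, against 14.7 to 20.6 CPM at E14.5, with Csf1r lower (-0.76). That call was lost with total count scaling and without E16.5 replicate 1 or 2 or E14.5 replicate 1 or 2 (-0.80 to -0.57).

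The fibril collagen chains Col3a1 and Col1a2 fell, as did fibronectin, while Col1a1 did not pass. Col3a1 had 12.6, 13.7 and 23.2 CPM at E16.5, against 72.7, 52.2 and 51.9 CPM at E14.5 (log2 change -1.83 ± 0.18 SE, edgeR adjusted p = 1.71e-07), and Col1a2 6.59, 7.86 and 11.2 CPM at E16.5, against 36.8, 22.4 and 22.4 CPM at E14.5 (-1.66 ± 0.21, 7.09e-06). Col1a1 had 7.6, 12.5 and 17.6 CPM at E16.5, against 28.3, 16.1 and 13.9 CPM at E14.5, with overlapping stages (-0.61 ± 0.32, edgeR adjusted p = 0.184). Col12a1, a fibril-associated collagen, fell by 2.28 on the log2 scale and the keratan sulfate proteoglycan lumican (Lum) by 1.74, or by 2.56 without E16.5 replicate 3. Fibronectin (Fn1) had 133, 127 and 138 CPM at E16.5, against 330, 259 and 357 CPM at E14.5 (-1.25 ± 0.12, 7.28e-08). Of 23 genes on the list of other collagens and zonule matrix, 5 fell and 2 rose, and the median log2 change was -0.21. Of the 8 mesenchyme markers tested, which include Col1a1, Col1a2, Col3a1 and Lum, 4 were lower, 3 of them by 2-fold, and 1 was higher. The higher one was periostin (Postn), a secreted matrix protein, with 4.11, 4.31 and 4.42 CPM at E16.5, against 2.69, 2.55 and 1.5 CPM at E14.5 (log2 change 0.95 ± 0.18 SE, edgeR adjusted p = 0.000423). The 8 markers summed to 591 to 637 CPM at E16.5, against 652 to 739 CPM at E14.5; most of that sum is Pdgfra (545 to 597 CPM at E16.5, against 546 to 608 CPM at E14.5), which lens epithelium itself expresses. What part the lower vessel, red cell and mesenchyme markers have in the falls of Col15a1, Lama4, Col3a1, Col1a2 and Fn1 was not tested.

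The 2 list genes that rose beside these, the collagen chain Col9a1 (21.3, 36.9 and 56.5 CPM at E16.5, against 14.7, 26.8 and 15 CPM at E14.5) and opticin (Optc, 0.543, 1.34 and 5.92 CPM at E16.5, against 0.158, 1.04 and 0.36 CPM at E14.5), overlapped between stages and were highest in E16.5 replicate 3. The same held for Zic2 (1.78, 4.66 and 12.6 CPM at E16.5, against 0.554, 4.14 and 2.28 CPM at E14.5) and Mab21l2 (3.88, 10.4 and 33.7 CPM at E16.5, against 2.3, 9.18 and 5.34 CPM at E14.5), regulators of the optic cup and its margin. These 4 genes are ones the optic cup margin also makes, and without E16.5 replicate 3 none of them passed: the log2 changes were 0.64, 0.91, 0.50 and 0.39. They also missed the threshold without E14.5 replicate 1 and without E14.5 replicate 3. Retina markers summed to 14.3, 16.9 and 35.7 CPM at E16.5, against 10.7, 17.9 and 9.3 CPM at E14.5, and none of 11 passed. Pigment cell markers (5.66 to 12.4 CPM at E16.5, against 7.98 to 15.5 CPM at E14.5) and cornea markers (9.77 to 12.3 CPM at E16.5, against 8.76 to 9.32 CPM at E14.5) stayed low, and none passed.

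Cell division genes were lower as a block, by less than 2-fold each. All 26 mitosis genes tested were lower at an adjusted p under 0.05 (edgeR quasi-likelihood test), where 12% of all genes tested were, with log2 changes of -0.91 to -0.54 and a median of -0.68; in each of the 26 the 3 E16.5 libraries lay below the 3 E14.5 libraries. The proliferation antigen Mki67 had 384, 345 and 399 CPM at E16.5, against 560, 537 and 542 CPM at E14.5 (log2 change -0.54 ± 0.13 SE, edgeR adjusted p = 0.00302). Topoisomerase Top2a had 287, 270 and 286 CPM at E16.5, against 439, 435 and 446 CPM at E14.5 (-0.65), and Cdc20, the activator of the anaphase-promoting complex, 20.5, 21.8 and 20.9 CPM at E16.5, against 41.7, 32.9 and 44.5 CPM at E14.5 (-0.91). The stages did not overlap in any of these.

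Of 30 DNA replication genes, 24 were lower and none higher, with a median log2 change of -0.56. By total count scaling 20 were lower, and 20 to 25 were lower when single libraries were left out. The helicase subunit Mcm5 had 48.5, 53.7 and 51.3 CPM at E16.5, against 90.7, 76.6 and 93.3 CPM at E14.5 (-0.76 ± 0.16 SE, edgeR adjusted p = 0.00133), and the ribonucleotide reductase subunit Rrm2 34.9, 32.7 and 36.8 CPM at E16.5, against 62.6, 53.7 and 64.5 CPM at E14.5 (-0.79). Genes that did not pass included Gins1, Gins4 and Rfc3, with log2 changes of -0.58, -0.12 and -0.27. Of 58 histone genes that are transcribed with DNA replication, 18 were lower and none higher (median -0.31). The lists kept their direction when the libraries were scaled by total count alone (medians -0.64 and -0.51 for mitosis and replication).

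Regulators of the cycle moved with them in part. Cdkn1c, which encodes the cyclin-dependent kinase inhibitor p57 and helps lens cells leave the cell cycle, rose to 765, 832 and 808 CPM at E16.5, against 372, 396 and 304 CPM at E14.5 (log2 change 1.17 ± 0.09 SE, edgeR adjusted p = 1.18e-08). It was the only gene of this list of 19 to pass at 2-fold. The cyclins Ccnd2 (-0.42) and Ccne1 (-0.66), the kinases Cdk2 and Cdk4 (both -0.33) and Rbl1 (-0.33) were lower. Scaled by total count alone, 1 of the 5, Ccne1, passed, and the call of Cdk2 was also lost without E16.5 replicate 1 or 3 or E14.5 replicate 3 (-0.33 to -0.22). Cdkn1b, the p27 inhibitor, had 53.9, 60.5 and 51.8 CPM at E16.5, against 50.9, 53.3 and 55 CPM at E14.5, and cyclin D1 (Ccnd1) 262 to 306 CPM at E16.5, against 247 to 266 CPM at E14.5; neither passed. The growth regulator Myc fell (10.7, 11.7 and 10.9 CPM at E16.5, against 51.4, 32.4 and 49.9 CPM at E14.5; -2.00 ± 0.22, edgeR adjusted p = 6.19e-07), while Mycn was higher (81.5, 95.6 and 87.7 CPM at E16.5, against 60.9, 69 and 57.4 CPM at E14.5; 0.50 ± 0.10, edgeR adjusted p = 0.00049).

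Cdkn1c is also an imprinted gene. Of the 16 imprinted growth genes tested, it was the 1 that rose, and 3 fell. Igf2, the fetal insulin-like growth factor, lies at 142650766 to 142666816 on the minus strand of chromosome 7, and Cdkn1c at 143458339 to 143461050 on the same strand (GRCm38). Igf2 had 82.5, 132 and 134 CPM at E16.5, against 362, 288 and 412 CPM at E14.5 (log2 change -1.60 ± 0.18 SE, edgeR adjusted p = 1.2e-06). Mest, which encodes a protein of the hydrolase fold, had 590, 546 and 581 CPM at E16.5, against 1340, 1140 and 1460 CPM at E14.5 (-1.20 ± 0.15, 6.24e-06), and Peg10, derived from a retrotransposon, 18.8, 17.6 and 23.1 CPM at E16.5, against 83.9, 55.2 and 72.7 CPM at E14.5 (-1.83 ± 0.16, 2.73e-08). The stages did not overlap for these 3 genes. Plagl1 (-0.87), Grb10 (-0.34) and Peg3 (-0.26) were lower, Ndn was higher (0.21), and 8 of the 16 genes did not pass, H19 among them with 1580, 1820 and 1720 CPM at E16.5, against 2400, 2190 and 2320 CPM at E14.5. The calls of Grb10, Peg3 and Ndn were lost with total count scaling, that of Peg3 also without any library but E14.5 replicate 1 in turn (-0.28 to -0.23), and that of Ndn with DESeq2 and without E16.5 replicate 1 or 2 or E14.5 replicate 1 or 2 (0.16 to 0.22). With the replicate block, Peg3 had an adjusted p of 0.0536. The list's median log2 change was -0.05, so its members did not move one way. Igf2 overlaps Igf2os and Mest overlaps Copg2 on the other strand, and without the strand setting of the counting their reads cannot be told apart. In the IGF pathway list of 12 genes Igf2 was the one to fall. The receptor Igf1r had 304 to 307 CPM at E16.5, against 305 to 351 CPM at E14.5, and did not pass. The insulin receptor Insr (0.17), its substrate Irs1 (0.39) and Igfbp7 (0.58) were higher, and Irs2 (-0.52) and the binding proteins Igfbp3 (-0.60) and Igfbp4 (-0.53) were lower. The call of Insr was lost with total count scaling and without E16.5 replicate 1 or 3 or E14.5 replicate 1 or 3 (0.13 to 0.18), that of Igfbp3 without E16.5 replicate 2 or E14.5 replicate 1 (-0.52 and -0.49), that of Igfbp4 without E16.5 replicate 1 (-0.41) and that of Irs2 without E14.5 replicate 3 (-0.28).

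Lin28a, Lin28b and Sall4, regulators of the early embryonic state, fell. The LIN28 proteins bind the precursors of let-7 microRNAs and block their maturation, and the mature let-7 RNAs in turn target LIN28 transcripts. Lin28b had 51.8, 57.6 and 46.8 CPM at E16.5, against 112, 116 and 124 CPM at E14.5 (log2 change -1.17 ± 0.10 SE, edgeR adjusted p = 1.19e-08). Lin28a had 14 counts over the 3 E16.5 libraries and 231 over the 3 E14.5 libraries (0.543, 0.291 and 0.15 CPM at E16.5, against 5.7, 3.59 and 6.42 CPM at E14.5; -3.98 ± 0.38, edgeR adjusted p = 2.59e-07). Sall4, a zinc finger factor of stem cells, had 3.18, 3.26 and 3.52 CPM at E16.5, against 15.5, 12.8 and 18.8 CPM at E14.5 (-2.24 ± 0.19, edgeR adjusted p = 1.98e-08). Replicates were tight for Lin28b and Sall4, and the stages were far apart.

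The letters through which let-7 is known to recognise these transcripts are shown with the miRNA. Its seed, bases 2 to 8, is in capitals; 9 of 10 mouse let-7 family members in the RefSeq table share it, and let-7j has another. Sites are the 7 letters CTACCTC that pair with the seed, in capitals within 30 bases of 3′ UTR (GENCODE M21 transcripts, GRCm38, minus strand for both genes, read 5′ to 3′). Mature let-7 was not measured by this assay.
let-7a-5p: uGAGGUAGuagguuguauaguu
Lin28b site 1, chr10:45381012-45381041: cgggcgggaagtCTACCTCatgcaagcaca
Lin28b site 2, chr10:45378638-45378667: acttgttagtaaCTACCTCtgagtttgaca
Lin28b site 3, chr10:45378466-45378495: tacagcacatggCTACCTCccagctaccac
Lin28b site 4, chr10:45377050-45377079: tgatggcaccgaCTACCTCttcaatcactt
Lin28a site 1, chr4:134005179-134005208: cagcctgttgaaCTACCTCatttttgccga
Lin28a site 2, chr4:134004541-134004570: atcgccacaaacCTACCTCactgtgttgaa

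The Lin28 and let-7 list had 12 genes tested, of which 3 fell, 9 in all were lower and 1 was higher, with a median log2 change of -0.46. Igf2bp1, an RNA-binding protein that stabilises fetal transcripts, had 265, 268 and 276 CPM at E16.5, against 364, 354 and 370 CPM at E14.5 (-0.43 ± 0.10 SE, edgeR adjusted p = 0.00308), and Arid3a (-0.52), Arid3b (-0.50), Igf2bp3 (-0.32) and Igf2bp2 (-0.25) were lower too. Hmga2, a chromatin protein and a well known let-7 target, had 532, 533 and 493 CPM at E16.5, against 534, 571 and 573 CPM at E14.5 and did not pass. At least 1 site was found in 10 of the 12 list genes, which were listed as known let-7 targets; over the table, 10.4% of 11634 tested genes with a 3′ UTR have it, and 20.5% of the 3611 with a 3′ UTR of at least 2000 bases. It was present in 15 of 96 genes that fell (15.6%) and in 18 of 195 that rose (9.23%), counting genes with a 3′ UTR. The 15 include Lin28a, Lin28b and Sall4 of the list itself. At any size of change the shares were 12.3% of 1444 genes that were lower and 10.4% of 1262 that were higher, near the 10.4% of all. Scaled by total count alone, 5 list genes were lower in place of 9, and the calls of Igf2bp1, Igf2bp2 and Igf2bp3 were among those lost.

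**Figure D3:**
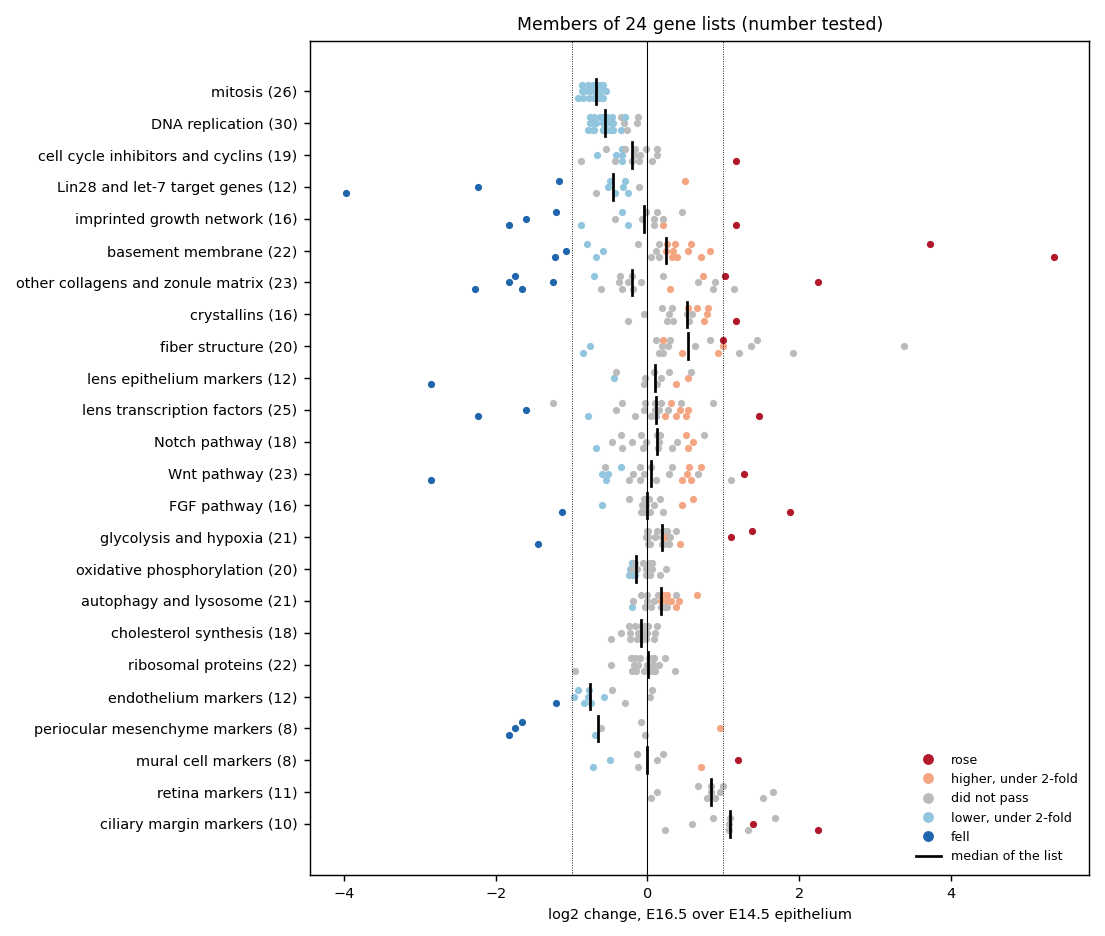
Log2 change of E16.5 over E14.5 epithelium for each tested member of 24 gene lists, 1 dot per gene coloured by its call, a black bar at the list's median and dotted lines at 2-fold. Mitosis and DNA replication genes lie wholly left of 0 and inside 2-fold, while the basement membrane list holds 2 genes far to the right.

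Most genes of the lens program did not pass. Of 12 epithelium markers 1 fell, 1 more was lower and 2 were higher. The fall was that of Sfrp2, a secreted Wnt modulator of the early lens (chromosome 3, 83766321 to 83774316, plus strand, GRCm38), which had 52.2, 47.3 and 66 CPM at E16.5, against 415, 271 and 504 CPM at E14.5 (log2 change -2.85 ± 0.22 SE, edgeR adjusted p = 8.99e-09); its mean at P0.5 was 8.55 ± 3.14 CPM (SD, n = 3). Foxe3, the forkhead factor that keeps the epithelium dividing, had 171, 203 and 177 CPM at E16.5, against 198, 210 and 329 CPM at E14.5 and did not pass (-0.42 ± 0.17, edgeR adjusted p = 0.0861). Itga6 was lower (-0.44), and the chaperone clusterin (Clu, 0.54) and Sox2 (0.37) were higher. Among 25 lens transcription factors Maf (0.43), Gata3 (0.51), Rarb (0.53) and Prox1 (0.23) were higher, Sox11 was lower (-0.79), and Sall4 fell. The calls of Sox2 (0.31 to 0.38) and Prox1 (0.20 to 0.23) were lost without E16.5 replicate 1 or 2 or E14.5 replicate 1 or 3, and that of Prox1 with total count scaling.

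Genes of fiber differentiation were higher in part. Cryab, the small heat shock protein alpha B-crystallin that epithelium also makes, had 1690, 1700 and 1670 CPM at E16.5, against 646, 926 and 670 CPM at E14.5 (log2 change 1.17 ± 0.15 SE, edgeR adjusted p = 4.49e-06). Alpha A-crystallin (Cryaa) was higher by 0.75, with 11700, 13700 and 12100 CPM at E16.5, against 6550, 7300 and 8410 CPM at E14.5. Of 16 crystallins 1 rose, 6 in all were higher and none lower, with a median of 0.52; Cryba2, Crybb3, Crygb and Crygn were the others. Reads of the near-identical gamma crystallins may be shared between members. In the fiber structure list of 20 genes, 5 were higher at any size and 2 lower, with a median log2 change of 0.54. The lower ones were Scnn1b (-0.85) and Pla2g7 (-0.76), and both calls were lost without E16.5 replicate 1 and without E14.5 replicate 3. The beaded filament genes Bfsp1 and Bfsp2 had log2 changes of 1.0 and 0.99, of which Bfsp1 passed at 2-fold. That call was lost with DESeq2, and the log2 change of Bfsp1 lay between 0.94 and 1.0, under the threshold, without E16.5 replicate 2 or 3 or E14.5 replicate 1 or 3. The fiber membrane genes Mip (387, 587 and 359 CPM at E16.5, against 355, 349 and 500 CPM at E14.5) and Lim2 did not pass. E16.5 replicate 2 had the highest E16.5 value of Cryaa, Cryba2, Crybb3, Crygb, Crygn and Mip. Without it the calls of Crybb3 and Crygb were lost (0.42 and 0.51), and that of Crygb was also lost without any of the 3 E14.5 replicates in turn (0.62 to 0.68).

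Signalling lists had few calls. In the FGF list of 16 genes, Fgf1 rose (5.58, 4.07 and 1.8 CPM at E16.5, against 1.11, 1.1 and 0.9 CPM at E14.5) and the target gene Etv4 fell (1.24, 1.75 and 0.975 CPM at E16.5, against 3.09, 2.62 and 3.18 CPM at E14.5), a call lost without E16.5 replicate 3 (log2 change -0.96). The receptor Fgfr3 was higher (165, 166 and 157 CPM at E16.5, against 99.6, 113 and 110 CPM at E14.5; log2 change 0.60), and Fgfr1 and Fgfr2 did not pass. In the Wnt list of 23 genes, the receptor Fzd1 rose (220, 237 and 194 CPM at E16.5, against 85.1, 118 and 67.2 CPM at E14.5; 1.27 ± 0.17 SE, edgeR adjusted p = 1.03e-05) and Sfrp2 fell. The ligands Wnt7b (0.71) and Wnt5b (0.52), the receptor Fzd6 (0.57) and the modulators Sfrp1 (0.45) and Dkk3 (0.55) were higher. The receptors Fzd3 (-0.52) and Fzd7 (-0.60), Lrp5 (-0.55) and Tcf7 (-0.35) were lower. In all, 6 genes of the list were higher and 5 lower, with a median of 0.05. The call of Lrp5 was lost without E16.5 replicate 1 or E14.5 replicate 1 or 3 (-0.51 to -0.38). That of Tcf7 was lost with total count scaling and without E16.5 replicate 1 or 2 or E14.5 replicate 2 or 3 (-0.36 to -0.29). Axin2, a target of the canonical pathway, had 38.3 to 41.5 CPM at E16.5, against 39.2 to 45.3 CPM at E14.5, and did not pass.

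No gene of the Notch list of 18 or of the BMP and TGF-beta list of 20 passed at 2-fold. The Notch ligand Jag1 was higher (515, 530 and 478 CPM at E16.5, against 351, 375 and 327 CPM at E14.5; log2 change 0.53 ± 0.07 SE, edgeR adjusted p = 7.17e-06), as were the targets Hey1 (0.51) and Hey2 (0.60), and Notch4, an endothelial receptor, was lower (-0.68). The call of Notch4 was lost without E16.5 replicate 1 or E14.5 replicate 3 (-0.59 and -0.58). That of Hey2 was lost with DESeq2, with total count scaling and without E16.5 replicate 1 or 3 or E14.5 replicate 1 or 3 (0.51 to 0.57), and had an adjusted p of 0.0553 with the replicate block. The BMP receptor Bmpr2 (0.18) and the targets Id1 (0.56) and Smad7 (0.50) were higher, and Tgfbr2 (-0.84), Bambi (-0.60) and Tgfb2 (-0.23) were lower. The calls of Bmpr2 and Tgfb2 were lost with total count scaling and each without 5 of the 6 libraries in turn (0.12 to 0.20 and -0.24 to -0.20), Bmpr2 keeping its call without E14.5 replicate 2 and Tgfb2 without E14.5 replicate 1. That of Bmpr2 was lost with DESeq2 too and had an adjusted p of 0.059 with the replicate block, and that of Id1 was lost without E16.5 replicate 2 or 3 or E14.5 replicate 1 or 2 (0.47 to 0.53). In the retinoic acid list the degrading enzyme Cyp26b1 fell (0.93, 1.28 and 1.35 CPM at E16.5, against 6.49, 3.66 and 4.98 CPM at E14.5), the binding protein Crabp2 was lower (-0.96), the receptors Rara, Rarb and Rxra were higher by 0.37, 0.53 and 0.29, and the synthesising enzyme Aldh1a1 had 790 to 846 CPM at E16.5, against 805 to 857 CPM at E14.5. The call of Rxra was lost with total count scaling and without E16.5 replicate 2 or 3 or E14.5 replicate 1 or 3 (0.24 to 0.27).

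In metabolism, the brain-type aldolase Aldoc rose (25.8, 24.5 and 23.1 CPM at E16.5, against 8.55, 9.18 and 10.4 CPM at E14.5; log2 change 1.38 ± 0.17 SE, edgeR adjusted p = 3.56e-06), and so did Egln3, an oxygen-sensing hydroxylase that HIF induces (1.10). The log2 change of Egln3 was 0.97 without E16.5 replicate 3 and 0.92 without E14.5 replicate 1. The glucose transporter Slc2a3 fell (1.4, 1.63 and 1.95 CPM at E16.5, against 3.72, 4.97 and 4.8 CPM at E14.5), while the main lens transporter Slc2a1 had 1200 to 1250 CPM at E16.5, against 1020 to 1130 CPM at E14.5 and did not pass. Most glycolytic enzymes did not pass: the list of 21 had 4 genes higher at any size, Vegfa and Hk2 being the others, and a median of 0.19; the call of Hk2 was lost with total count scaling. Of 20 oxidative phosphorylation genes 6 were lower by 0.16 to 0.24 on the log2 scale, none of them when libraries were scaled by total count alone, and 3 when E16.5 replicate 1 or 3 or E14.5 replicate 1 or 3 was left out or the 6 libraries were fitted alone. Of 21 autophagy and lysosome genes 8 were higher, none at 2-fold; the lysosomal protease Ctsl led with 162, 149 and 142 CPM at E16.5, against 91.5, 102 and 94.8 CPM at E14.5 (0.65 ± 0.07 SE, edgeR adjusted p = 9.13e-07), and by total count scaling 4 were higher. None of 18 cholesterol synthesis genes and none of 22 ribosomal protein genes passed at any size with edgeR, with medians of -0.08 and 0.01.

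Among redox genes the glutathione transferase Gstm1 was higher (192, 164 and 172 CPM at E16.5, against 93.1, 93.8 and 95.1 CPM at E14.5; log2 change 0.90 ± 0.10 SE, edgeR adjusted p = 6.19e-07) and the cystine transporter Slc7a11 was lower (-0.74). Of the 22 genes 5 were higher and 3 lower, none by 2-fold, with 3 higher by total count scaling and without E16.5 replicate 2 or E14.5 replicate 2. Of 11 immediate early genes tested, 2 fell, 3 in all were lower and 1 was higher, with a median log2 change of 0.02. The falls were those of Fos (0.93, 1.22 and 0.975 CPM at E16.5, against 3.01, 2.07 and 3.84 CPM at E14.5) and Egr1 (7.91, 13.2 and 7.42 CPM at E16.5, against 22.2, 13.5 and 26.5 CPM at E14.5). The log2 change of Egr1 lay between -1.06 and -0.88, and did not pass, without E16.5 replicate 1 or 3 or E14.5 replicate 1 or 3. Nlrc5, a transactivator of MHC class I genes, rose at a low level (4.11, 4.13 and 5.1 CPM at E16.5, against 0.871, 1.24 and 0.3 CPM at E14.5), Tapbp was higher, and B2m, the MHC class I light chain, was lower (-0.71). Of 11 long noncoding RNAs Malat1 was higher (18400, 17800 and 15800 CPM at E16.5, against 11700, 13500 and 12400 CPM at E14.5; log2 change 0.47).

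Among the remaining named falls, Greb1, a steroid receptor cofactor, had 40, 36.7 and 38.5 CPM at E16.5, against 92.6, 87.8 and 111 CPM at E14.5 (log2 change -1.34 ± 0.11 SE, edgeR adjusted p = 9.14e-09). The cation channel Trpc6 had 32.1, 48.3 and 44.9 CPM at E16.5, against 116, 83.6 and 93 CPM at E14.5 (-1.22 ± 0.15, edgeR adjusted p = 4.35e-06), and the membrane repair protein dysferlin (Dysf) 9.22, 8.96 and 10.3 CPM at E16.5, against 25.6, 16.6 and 25.6 CPM at E14.5 (-1.25). Replicates of both stages were separate for all 3 of these genes.

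To see where the epithelium step differed from the same step in fiber cells, which shares no library with it, the log2 change from E14.5 to E16.5 in epithelium was set against that in fiber by an interaction contrast in the same fit. The change was higher in epithelium by at least 2-fold for 124 genes (0.998%) and lower for 99 (0.797%). This split depended on the scaling: by total count alone the numbers were 333 and 69 (crystallins take 24.2% to 29.3% of E16.5 fiber counts and 23.3% to 25.7% of E14.5 fiber counts). Of the 212 genes that rose in epithelium, 35 were in the first set and 0 in the second. Of the 102 that fell, 1 was in the first and 21 in the second. This lean is built in, since the contrast holds the epithelium change by which these genes were called. Of all 12427 genes tested, 181 rose in fiber and 200 fell there. Of the rises in epithelium, 39 were also rises in fiber, 18.4% of the epithelium set and 21.5% of the fiber set. The shared falls were 19, 18.6% of the epithelium set and 9.5% of the fiber set. Only 1 gene rose in epithelium and fell in fiber, and 3 did the reverse.

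Matrix genes were among the named differences on the epithelial side. The step was higher in epithelium for Col4a3 by 3.33 ± 0.50 on the log2 scale (SE, edgeR interaction adjusted p = 0.00013), with fiber at 9.64 ± 1.74 CPM at E16.5 and 7.50 ± 1.14 CPM at E14.5 (SD, n = 3 each). The differences for Podn (2.56), Tinagl1 (2.44), Thbs1 (1.88) and Spon1 (1.59 ± 0.12, edgeR interaction adjusted p = 4.48e-08) passed as well. For Col4a4 the difference was 4.18 but did not pass (edgeR interaction adjusted p = 0.13), with fiber at 1.19 ± 0.731 CPM at E16.5 and 0.501 ± 0.217 CPM at E14.5. Bub1 and Lrrc32 were among the largest differences with another arrangement. Bub1, a mitotic checkpoint kinase, was lower in epithelium by 0.71 on the log2 scale while in fiber it had 0.626 ± 0.281 CPM at E16.5 and 4.47 ± 0.213 CPM at E14.5. Lrrc32, a TGF-beta carrier, had 23.8 ± 0.666 CPM at E16.5 and 21.1 ± 1.94 CPM at E14.5 in epithelium and did not pass there, against 0.37 ± 0.113 CPM at E16.5 and 1.69 ± 0.296 CPM at E14.5 in fiber.

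On the other side were genes with a rise in fiber. The lipid-binding protein Fabp5 had 10.8 ± 2.98 CPM at E16.5 and 8.95 ± 0.172 CPM at E14.5 in epithelium, against 111 ± 22 CPM at E16.5 and 18.4 ± 1.07 CPM at E14.5 in fiber (SD, n = 3 each; difference -2.30 ± 0.33 SE, edgeR interaction adjusted p = 7.71e-05). The sphingosine phosphate transporter Spns2 (-2.15), the mechanosensitive channel Piezo2 (-2.35) and the protocadherin Pcdh17 (-2.88 ± 0.29, edgeR interaction adjusted p = 1.04e-06) showed the same arrangement, Pcdh17 being 4.78 ± 0.951 CPM at E16.5 and 14.9 ± 3.07 CPM at E14.5 in epithelium, against 20.4 ± 4.46 CPM at E16.5 and 8.56 ± 0.623 CPM at E14.5 in fiber. The actin bundler Lcp1 (-2.46 ± 0.75, edgeR interaction adjusted p = 0.0434) averaged 0.895 CPM at E16.5 and 0.257 CPM at E14.5 in fiber, and its call was lost without any of 8 of the 12 libraries in turn, E16.5 fiber replicate 1 among them (-1.36). Spns2 overlaps Mybbp1a on the other strand. Other leading genes had a fiber change in the same direction: Hbb-y -5.77, Sfrp2 -2.32, Mest -1.43, Igf2 -0.91, Lin28b -0.60 and Cryab 1.34 on the log2 scale, and their differences between the tissues did not pass at 2-fold.

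**Figure D4:**
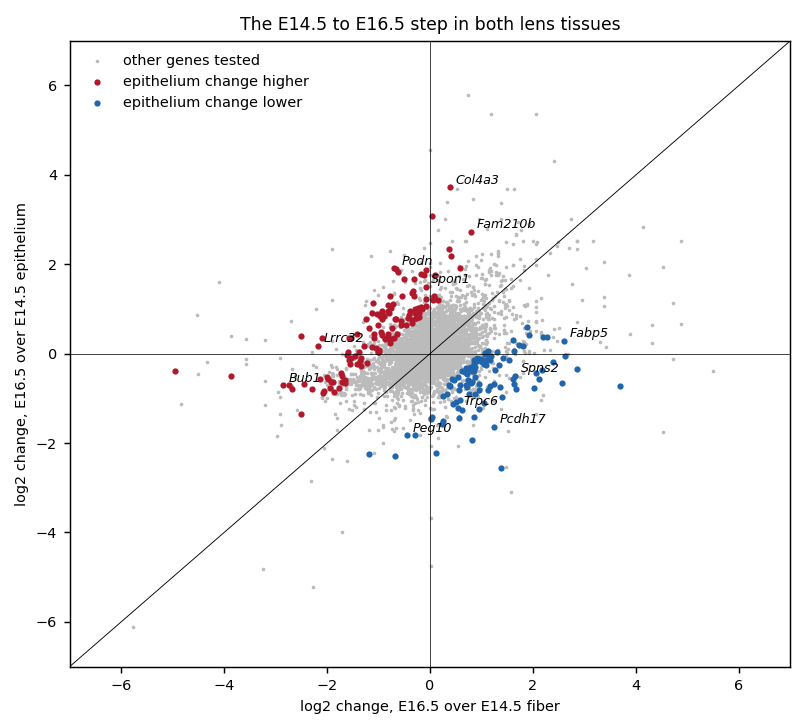
Log2 change of E16.5 over E14.5 in epithelium (vertical) against that in fiber (horizontal) for all genes tested, with genes whose change was higher in epithelium by the interaction test in red, those whose change was lower in blue, and the line of equal change. Col4a3 and Fam210b lie high above the line, and Fabp5 and Pcdh17 lie far below it.

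Means at the later stages, given without a test because the next step shares the E16.5 libraries, place the E16.5 levels in the longer series from E14.5 to P0.5. Spon1 averaged 100, 284, 443 and 558 CPM over the 4 stages in epithelium, with SDs of at most 24.1 CPM (n = 3 each). Lin28b had 117 ± 6.1, 52.1 ± 5.43, 19.4 ± 1.91 and 22.8 ± 1.1 CPM over the same stages in order. Igf2 was lowest at E16.5, with 354 ± 62.1, 116 ± 29.3, 239 ± 8.99 and 140 ± 19.3 CPM, and Cdkn1c was highest there, with 357 ± 47.4, 802 ± 33.9, 574 ± 81.9 and 657 ± 37.7 CPM. Mest had 1310 ± 163, 572 ± 23.5, 581 ± 6.84 and 411 ± 28.5 CPM. The plots by stage show these together with fiber.

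**Figure D5:**
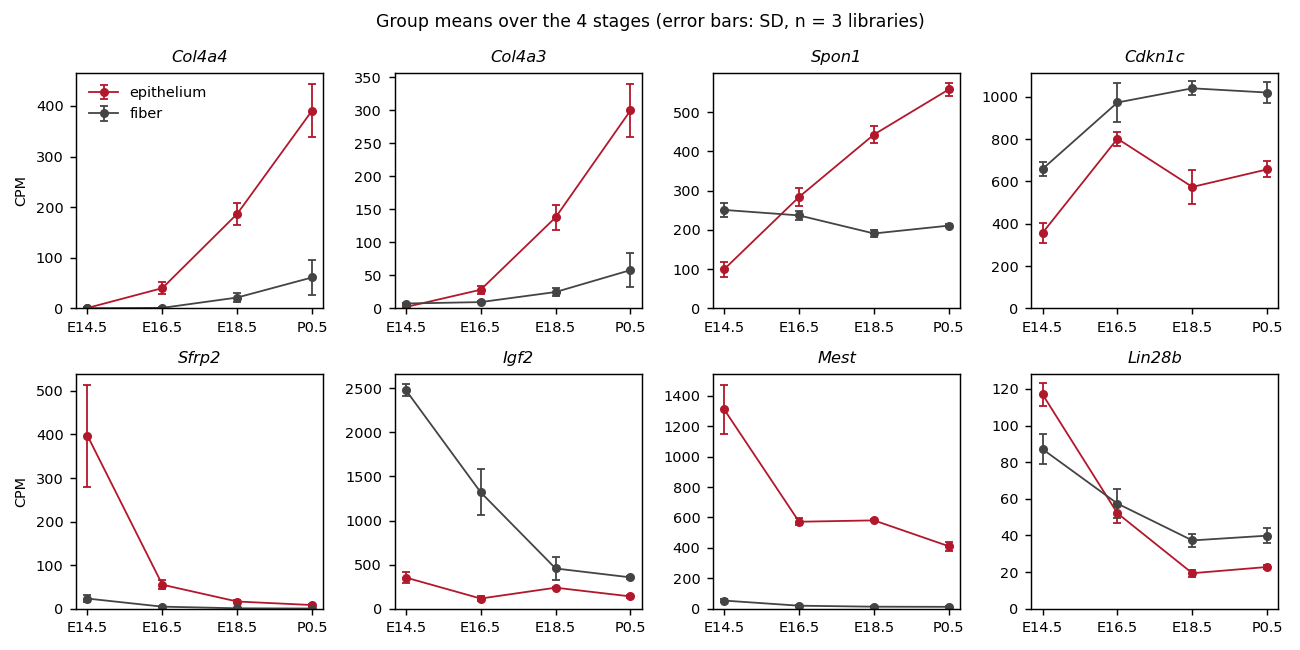
Mean CPM with SD (n = 3 libraries) at 4 stages in epithelium (red) and fiber (dark grey) for 8 genes, on linear axes from 0. Col4a4, Col4a3 and Spon1 go up at each stage in epithelium, Sfrp2 and Lin28b drop mainly by E16.5 and E18.5, and Igf2 is lowest and Cdkn1c highest in epithelium at E16.5.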

How the data were processed

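Total RNA was extracted with Trizol from microdissected lens tissue, depleted of ribosomal RNA and sequenced from stranded libraries as paired-end 100-base reads, per the labels and the design text. The deposited table holds whole-number read counts for 12611 genes, 1 column per library, with no normalization. The submitters' processing notes name HTSeq 0.6.1, TopHat2 2.0.13, Cufflinks 2.2.1, Cuffdiff, Trim Galore 0.4.1 and build mm10, with no order. How the genes were selected and the strand setting of the counting are not given in the sources used here.

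Genes were filtered with filterByExpr (minimum count 10, minimum total 15), which left 12427. Libraries were scaled with TMM, and the quasi-likelihood model of edgeR 4.0.16 (R 4.3.3), tested on simulated data, had a mean for each of 8 groups over all 24 libraries (16 residual degrees of freedom). P-values are two-sided and Benjamini-Hochberg adjusted over all genes tested, and SE is the size of the log2 change over the root of its F statistic. The smallest p that exact permutation of 3 against 3 libraries allows is 0.1. The p-values measure the spread between libraries, whose source is not described further. No library was a copy of another (replicates of a stage differed with a chi-square of 5.87 to 38.2 per degree of freedom). CPM come from edgeR's cpm function. Intervals cover counting error only.

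Named genes are the 15 largest rises and falls that passed with a mean of at least 20 CPM in the higher group, the 5 smallest adjusted p each way, the 5 largest interactions each way, and members of 37 lists. The step, the lists and the tests were chosen with earlier results of these data known. Coordinates are from GENCODE M21 (GRCm38, the assembly of mm10), which holds 12340 of the symbols (97.9%) once. Alternatives were scaling by total count, DESeq2 1.42.0, no filter, only the libraries compared, a replicate block, scaling without Rn45s and crystallins, no fold threshold, and leaving out each library. Some members of the lists are not reported here.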

Additional observations from a re-analysis of the deposited data

Results flagged for a closer look

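The 25 genes below are among those whose log2 change from E14.5 to E16.5 in epithelium differed from that in fiber. The test was the interaction contrast (edgeR quasi-likelihood, adjusted p under 0.05, at least 2-fold). Other list members passed it too and are not set out here. The mitosis list alone had 5 genes with a higher change in epithelium. Like all 26 mitosis genes tested, these 5 were lower at E16.5 in epithelium, and their drop in fiber was larger. Values here are the log2 change in epithelium minus the log2 change in fiber. The change was higher in epithelium for the matrix genes Col4a3 (3.33), Podn (2.56), Tinagl1 (2.44), Thbs1 (1.88) and Spon1 (1.59). It was also higher for Lrrc32 (2.34), Bub1 (2.15), Fam210b (1.93), Dusp15 (1.72), Fzd1 (1.2) and Greb1 (1.16); Greb1 fell in epithelium, and its fall in fiber was larger. It was lower in epithelium for Pcdh17 (-2.88), Piezo2 (-2.35), Fabp5 (-2.30) and Spns2 (-2.15), and for Lcp1 (-2.46), whose call was lost without most single libraries. Genes that fell in epithelium and had a lower change there than in fiber were Egr1 (-2.15), Dysf (-1.88), Trpc6 (-1.76), Fos (-1.74), Etv4 (-1.59), Col12a1 (-1.58), Col3a1 (-1.54), Peg10 (-1.39) and Sall4 (-1.06).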

How the results depend on the processing

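Rises and falls stayed within 1.5 times the counts of 212 and 102 under each alternative that kept the fold threshold: 225 and 93 with libraries scaled by total count, 203 and 96 with DESeq2, 179 and 97 with only the 6 libraries compared. Without the threshold, 1340 genes were higher and 1487 lower, and 517 and 513 for the difference between the tissues. Leaving out single libraries gave 161 to 260 rises and 86 to 149 falls, with 260 and 128 without E14.5 replicate 2 and 149 falls without E16.5 replicate 3. For the difference between the tissues, leaving out single libraries gave 87 to 147 and 82 to 118, against 124 and 99, and scaling by total count gave 333 and 69. Libraries with the same replicate number did not deviate together (correlations 0.039, -0.209 and -0.097), and the fit with the replicate block gave 205 rises and 101 falls, of which 203 and 100 were shared. No call of a named or listed gene changed direction. Among the named genes and the list genes past the 2-fold threshold, calls lost under an alternative were those of Cwc22, Col15a1, Lcp1, Bfsp1, Mab21l2, Lama4, Col9a1, Optc, Etv4, Egln3, Egr1, Rgs5 and Zic2. Of the 217 list genes higher or lower at any size, 75 lost an adjusted p under 0.05 in at least 1 alternative: 43 with total count scaling, 15 with DESeq2, 16 with only the 6 libraries, 6 with the replicate block and 13 to 37 without single libraries. The cause was not tested. With 3 libraries a stage, small changes and genes under 1 CPM are the least certain, and reads shared between overlapping or near-identical genes cannot be separated.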
